A study of Mus musculus with 6 samples.

Results

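The histone cluster genes were taken as every gene in the deposited tables whose symbol begins with Hist1h, Hist2h, Hist3h or Hist4, and 68 of the 25330 listed genes met this rule. Of these, 55 lie on chromosome 13, 10 on chromosome 3, 2 on chromosome 11 and 1 on chromosome 6. By symbol, 6 encode linker histone H1, 19 encode H2A, 18 encode H2B, 12 encode H3 and 13 encode H4. A member was tested when its counts summed to at least 10 over the 6 libraries, and 55 members passed this limit, along with 17492 of all genes.

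The libraries were made from AML12 cells, an immortalised mouse hepatocyte line that the labels give as wild type. The 3 Control libraries came from cells kept in 21% oxygen and 5% CO2 in their usual medium with fetal bovine serum, an insulin-transferrin-selenium supplement and dexamethasone. The 3 H6R2 libraries came from cells moved to medium without serum or glucose, held at 1% oxygen and 5% CO2 for 6 h and then reoxygenated for 2 h. Low oxygen, the loss of serum and glucose, and reoxygenation therefore cannot be told apart. Nothing in the labels says that the libraries of a group came from separate cultures, so each p-value measures only the spread between these libraries. Hepatocyte markers were present but uneven: the regulator Hnf4a had 2973 to 3209 counts in Control and 2035 to 2166 in H6R2. Alb, the main liver plasma protein, had 542 counts in Control replicate 1, 132 and 209 in the others and 31 to 43 in H6R2. Of the other hepatocyte markers, the keratins Krt8 and Krt18 and Foxa2 were higher in H6R2 at adjusted p under 0.05. They rose by 0.66, 0.66 and 0.20 on the log2 scale. Ttr, Trf, Apob and Cebpa were lower at that limit, with log2 fold changes of -3.07, -1.48, -1.04 and -0.85. Apoa1 and Apoe did not pass. The biliary keratin Krt19 had 18321 to 21347 counts in Control and 33908 to 37240 in H6R2. Summed RPKM of the leukocyte, endothelial, stellate and erythroid marker lists stayed under 0.8 in each library.

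Histones package DNA into nucleosomes, in which H2A, H2B, H3 and H4 form the core and linker H1 binds where DNA enters and leaves. The clustered genes supply most new histone while DNA is being copied. Their mRNAs mostly lack a poly(A) tail: they end a few bases after a conserved stem-loop, which is bound by the protein Slbp and cut with the help of the U7 snRNP, and they are degraded when DNA synthesis stops. The kit used here prepares libraries from mRNA and was taken to select poly(A) tails, so the counts below describe the part of histone mRNA that such libraries capture and not the total. A lower count can come from fewer cells in S phase, from less mRNA per cell or from a smaller captured part of it. In these bulk samples these cannot be told apart.

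The 3′ part of each gene model was examined, since it separates members whose deposited model ends at the stem-loop from members whose model goes on to a poly(A) signal. Sequence came from GENCODE M21 transcripts on GRCm38, the files' build, and ends and hexamers were counted within the deposited exons. A histone stem-loop after the stop codon was found in 45 members and lay inside the deposited exons of 42. Across M21, the same motif was found in 86 of 55450 genes (0.155%), and 46 of those 86 were histone cluster genes. The bases of the stem and loop were identical in 25 of the 45 members, and 7 H4 genes shared a second form. The stem-loops of members with high counts or called changes are printed here with the stem and loop in capitals and the flanking bases in lower case.
Hist1h1c stem-loop, chr13:23739507-23739532, plus strand: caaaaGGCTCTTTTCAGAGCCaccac
Hist1h1d stem-loop, chr13:23555782-23555807, plus strand: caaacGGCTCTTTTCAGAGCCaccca
Hist3h2a stem-loop, chr11:58955167-58955192, plus strand: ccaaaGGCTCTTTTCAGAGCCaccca
Hist2h2aa2 stem-loop, chr3:96239779-96239804, minus strand: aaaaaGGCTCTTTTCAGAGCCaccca
Hist2h2ac stem-loop, chr3:96220413-96220438, minus strand: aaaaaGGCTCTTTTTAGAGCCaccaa
Hist2h4 stem-loop, chr3:96262934-96262959, minus strand: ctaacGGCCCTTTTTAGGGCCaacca

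In 29 members the model ended within 100 bases of the stem-loop, in 13 it ran more than 100 bases past it, 4 had no stem-loop but more than 100 bases after the stop codon (Hist1h2bc, Hist2h2be, Hist1h2bq and Hist1h2br), and the other 22 ended near the stop codon or were pseudogenes. The limit of 100 bases was chosen after values were seen. These classes describe the deposited models, which can be shorter than M21: in 9 of the 29 members that end near the stem-loop, an M21 transcript runs more than 100 bases past the deposited end, by 4856 bases in Hist1h1d, 1982 in Hist1h2ac and 1126 in Hist1h1e. The hexamer AATAAA, the usual poly(A) signal, was searched on the transcript strand after the stem-loop, or after the stop codon where there was none, and was present in 13 members. In 10 of these 13 the last copy in the deposited exons ended within 40 bases of the deposited 3′ end. Hist1h2bc is among the 10, and its M21 transcript runs 420 bases past that end. The last copy in the deposited exons of 5 of the 10 is printed with the hexamer in capitals.
Hist1h1c hexamer, chr13:23740332-23740357, plus strand: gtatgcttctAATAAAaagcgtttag
Hist1h2bc hexamer, chr13:23692452-23692477, plus strand: atgtatatatAATAAAtgtcatgtaa
Hist2h2be hexamer, chr3:96223707-96223732, plus strand: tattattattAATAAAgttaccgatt
Hist3h2a hexamer, chr11:58956787-58956812, plus strand: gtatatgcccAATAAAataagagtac
Hist2h4 hexamer, chr3:96261699-96261724, minus strand: gtatacataaAATAAAatcttaaaaa

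**Figure D1:**
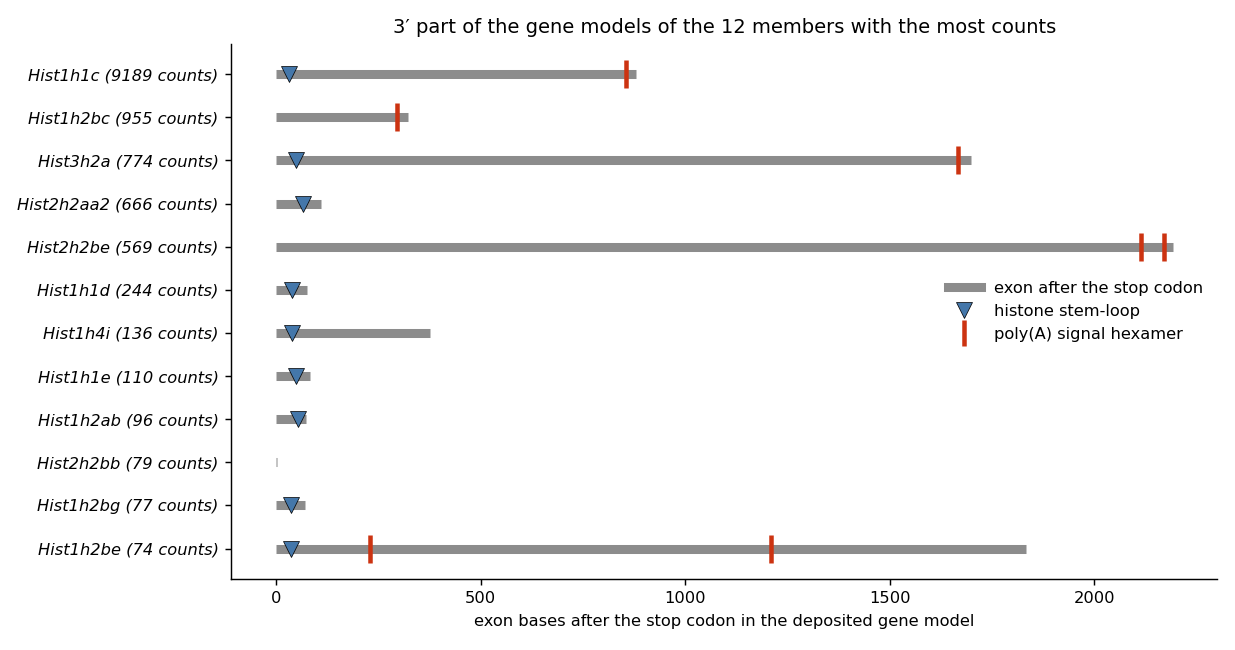
The 12 members with the most counts are shown from the stop codon (0) to the end of the deposited gene model, in exon bases. Triangles mark the histone stem-loop and red bars the AATAAA hexamer. Hist1h1c has both, with 840 exon bases after its stem-loop, while Hist1h1d ends 28 bases after its stem-loop.

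H2B promoters are known for an octamer bound by the factor Oct-1, so promoter motifs were counted by class. RefSeq promoters on GRCm38.p6 (250 bases before to 50 after the start) were matched for 60 members, 1 of them with a pair of promoters, and motifs were searched on both strands. None of the 3 motifs lies within another. CCAAT was present in 85.2% of the 61 member promoters and in 37.4% of all 32851 promoters, TATAAA in 54.1% against 13.6%, and the octamer ATTTGCAT in 21.3% against 1.74%. The octamer was found in 43.8% of H2B and 35.3% of H2A promoters and in none of those of H1, H3 or H4. Some H2A and H2B promoters overlap on opposite strands, such as those of Hist1h2ae and Hist1h2bg, so the same octamer can count in both classes. No promoter was matched for Hist1h2bc or Hist2h2be. The bases before their starts lie in the opposite-strand promoters of Hist1h2ac and Hist2h2ac, each of which has the octamer. The promoters of the 2 H1 genes that are described most closely below, and of an H2B gene with the octamer, are printed with these motifs in capitals.
Hist1h1c promoter, chr13:23738557-23738856, plus strand: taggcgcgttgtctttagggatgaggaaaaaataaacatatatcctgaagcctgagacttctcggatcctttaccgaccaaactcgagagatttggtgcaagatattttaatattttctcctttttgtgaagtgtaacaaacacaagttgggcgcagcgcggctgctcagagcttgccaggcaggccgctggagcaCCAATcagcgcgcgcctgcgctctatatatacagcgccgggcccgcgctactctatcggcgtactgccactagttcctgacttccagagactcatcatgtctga
Hist1h1d promoter, chr13:23554782-23555081, plus strand: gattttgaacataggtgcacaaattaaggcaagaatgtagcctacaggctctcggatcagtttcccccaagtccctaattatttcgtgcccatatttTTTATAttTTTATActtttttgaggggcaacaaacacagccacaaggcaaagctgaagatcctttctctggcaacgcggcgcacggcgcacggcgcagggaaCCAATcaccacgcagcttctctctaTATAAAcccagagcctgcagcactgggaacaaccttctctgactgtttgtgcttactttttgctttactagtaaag
Hist2h2bb promoter, chr3:96269450-96269749, plus strand: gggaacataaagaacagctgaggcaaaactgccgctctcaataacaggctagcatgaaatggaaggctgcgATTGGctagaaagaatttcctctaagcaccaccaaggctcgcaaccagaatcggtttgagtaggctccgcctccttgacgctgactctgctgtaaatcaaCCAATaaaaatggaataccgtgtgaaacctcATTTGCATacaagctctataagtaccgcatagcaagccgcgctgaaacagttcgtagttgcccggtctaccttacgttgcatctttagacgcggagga

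Histone cluster genes held few of the counts. Of 20438746 to 21854790 counts per library, members took 3165, 2671 and 2944 in Control and 1759, 1706 and 1885 in H6R2. All 3 Control libraries were above all 3 H6R2 libraries. Scaled to the library size after TMM adjustment (CPM), the summed level was 132 ± 9.49 in Control and 88.5 ± 1.36 in H6R2 (SD, n = 3), a ratio of 0.672, which was 0.698 without Control replicate 1.

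Most of this sum was 1 gene. Hist1h1c, which encodes linker histone H1.2, held 65.0% of all member counts, and the 5 members with the most counts held 86.0%. Per length, Hist1h1c had a mean level of 46.3 RPKM over the 6 libraries (range 33.9 to 59.8). Next came Hist1h2bc at 10.2 RPKM and Hist2h2aa2 at 9.92, whose order differed between the groups without overlap: in Control Hist1h2bc had 13.1 to 16.7 and Hist2h2aa2 8.74 to 12.05, and in H6R2 Hist1h2bc had 4.85 to 6.22 and Hist2h2aa2 8.89 to 9.13. Then came Hist3h2a at 2.84 (2.38 to 3.34) and Hist1h1d at 2.59 (1.79 to 3.14), which overlapped within each group. The other 63 members had mean levels of at most 1.70 RPKM, and 56 of the 68 were under 1. These levels are those of the deposited gene models, so a long model such as that of Hist2h2be (2620 bases) lowers the RPKM of a gene whose reads fall on part of it.

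A change was called at adjusted p under 0.05 (edgeR quasi-likelihood test, Benjamini-Hochberg over all genes tested) and a fold of at least 2. By this rule 8 of the 55 tested members were called, 7 lower and 1 higher in H6R2, where 8.69% of all tested genes were called (4.55% lower, 4.14% higher). At adjusted p under 0.05 alone, 9 members passed, 8 lower and 1 higher, against 51.3% of all tested genes (26% lower, 25.3% higher). The log2 fold change was negative in 35 of the 55 members and in 52.1% of all tested genes, and its median was -0.32 over the members and -0.03 over all tested genes. Scaling by library totals alone moved the median of all genes to -0.13 and that of members to -0.42, and the split of all calls from 796 lower and 724 higher to 1060 lower and 575 higher, while 7 members were still called lower and 1 higher. Depth was low for most members, and the share passing at adjusted p under 0.05 followed it in the whole table. Of members with 10 to 19 counts 1 of 19 passed (7.21% of all genes at that depth), with 20 to 49 counts 3 of 22 (12.1%), with 50 to 99 counts 2 of 6 (21.3%), and with at least 100 counts 3 of 8 (64%). In 11 members the groups did not overlap, 10 lower and 1 higher, against 57% of all tested genes.

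**Figure D2:**
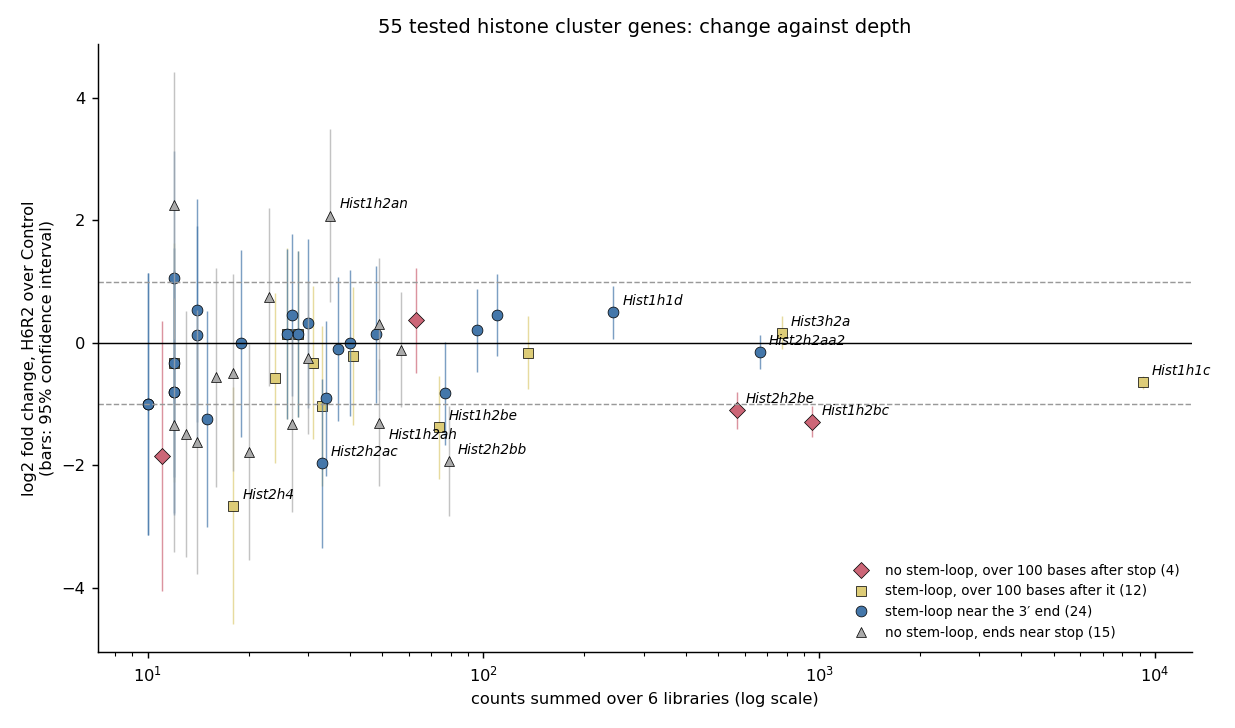
Each point is 1 of the 55 tested members, placed by its counts summed over 6 libraries (log scale) and its log2 fold change of H6R2 over Control, with its 95% confidence interval; colours give the form of the 3′ gene model. Intervals narrow to the right, where Hist1h1c at -0.65, Hist1h2bc at -1.29 and Hist2h2be at -1.10 lie below 0 and Hist1h1d at 0.50 lies above it.

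Linker histones differed among themselves. Hist1h1c had 2040, 1798 and 1980 counts in Control and 1131, 1090 and 1150 in H6R2. It fell 1.57-fold (log2 fold change -0.65, SE 0.050, adjusted p = 1.2e-14), with no overlap between groups, and so passed the test without reaching the 2-fold limit. Hist1h1d, which encodes H1.3, had 36, 28 and 43 counts in Control and 48, 40 and 49 in H6R2. Once scaled by library size, all 3 H6R2 values of Hist1h1d (43.2 to 51.7) were above all 3 Control values (27.3 to 40.5). Its log2 fold change was 0.50 (95% interval 0.06 to 0.93) and it did not pass the test (adjusted p = 0.0516), while the interval of Hist1h1c was -0.75 to -0.55. Hist1h1e (H1.4) and Hist1h1b (H1.5) had log2 fold changes of 0.45 and 0.30 and did not pass. Without Hist1h1c, the H1 sum was 2.80 ± 0.54 CPM in Control and 3.69 ± 0.72 in H6R2 (SD, n = 3), and the groups overlapped. Hist1h1c and Hist1h1d share no stretch of 150 bases with another member, so their reads can be told from those of the other members. The log2 ratio of Hist1h1c to Hist1h1d counts within each library was 5.82, 6.00 and 5.53 in Control and 4.56, 4.77 and 4.55 in H6R2. This pair was chosen after its values were seen. An exact two-sided permutation test of its ratio gave p = 0.1, the smallest that 3 against 3 allows, so it could not have passed.

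Of 13 tested H2B genes 4 were called lower, among 7 such members in all. Over all tested genes 4.55% were called lower. Hist1h2bc had 269, 203 and 225 counts in Control and 94, 73 and 91 in H6R2. Its groups were far apart relative to their spread, 14.7 ± 1.83 RPKM in Control and 5.59 ± 0.69 in H6R2 (SD, n = 3), and it fell 2.45-fold (log2 fold change -1.29, adjusted p = 8.29e-12). Hist2h2be had 127, 137 and 136 counts in Control and 56, 48 and 65 in H6R2. It fell 2.15-fold (log2 fold change -1.10, SE 0.15, adjusted p = 2.58e-08), and each H6R2 library had fewer counts than any Control library. These are the 2 well-covered H2B genes with no annotated stem-loop and a hexamer near the end of the deposited model, as printed above. The M21 transcript of Hist1h2bc runs 420 bases past that end.

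The other H2B genes called lower had fewer counts. Hist2h2bb, whose promoter with the octamer is printed above, had 31, 21 and 12 counts in Control and 5, 6 and 4 in H6R2 (log2 fold change -1.93, adjusted p = 2.95e-04). The groups did not overlap, but the Control libraries were spread widely, with replicate 1 the highest and replicate 3 the lowest. Hist2h2bb lies inside the exons of Gm42743 on the same strand, which had 80 counts over all libraries against 79 for Hist2h2bb, so both rows hold nearly the same reads and the gene they came from cannot be told. Gm20628, on the opposite strand over Hist2h2bb, had 37, 24 and 13 counts in Control and 6, 9 and 10 in H6R2, and reads of the 2 strands cannot be told apart here either. Hist1h2be had 20, 18 and 17 counts in Control and 4, 6 and 9 in H6R2 (log2 fold change -1.38, adjusted p = 0.00505), also without overlap. Its model spans 4374 exon bases, and Gm11398, a gene of 320 bases inside it, held 25.7% of its count. In Hist1h2bc 17.4% of 150-base stretches occur in another member, and in Hist2h2be none. Of the other 9 tested H2B genes, none passed, and the class sum was 20.6 ± 1.84 CPM in Control and 9.51 ± 0.57 in H6R2 (SD, n = 3), a ratio of 0.461 without overlap. Without Hist1h2bc and Hist2h2be the H2B ratio was 0.590, again with no overlap. That remainder still holds Hist2h2bb and Hist1h2be, both called lower, and no ratio was taken without them.

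**Figure D3:**
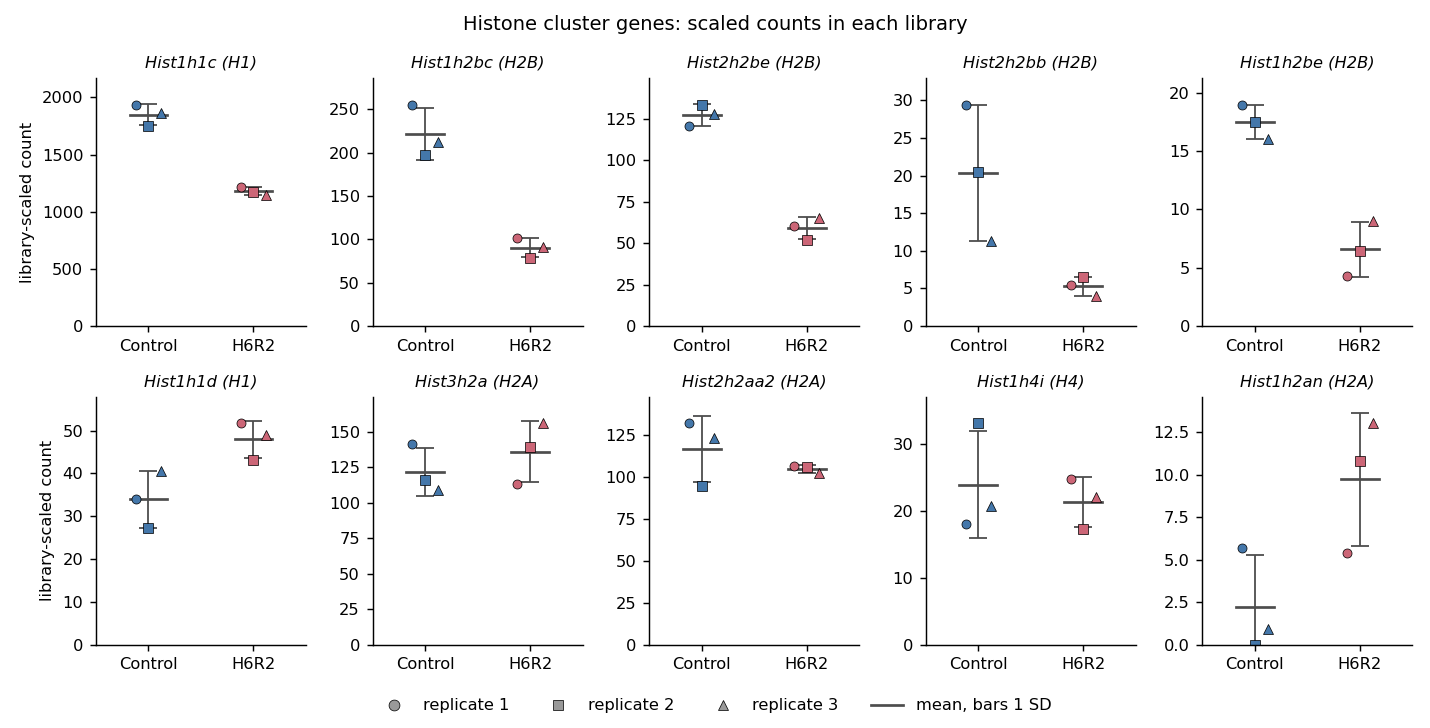
Library-scaled counts (linear axis from 0) of 10 named members in the 3 Control and 3 H6R2 libraries; symbols mark the replicate number, the line is the mean and the bars are 1 SD. The upper row shows members that were lower in H6R2 without overlap, and in the lower row only Hist1h1d has groups that do not overlap.

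H2A genes were mixed. Hist3h2a, the H2A gene with the most counts, had 149, 119 and 116 counts in Control and 105, 129 and 156 in H6R2. These groups overlapped, and the log2 fold change of 0.16 had a 95% interval of -0.11 to 0.43. Hist2h2aa2 had 139, 97 and 131 counts in Control and 99, 98 and 102 in H6R2, with a log2 fold change of -0.15 (95% interval -0.43 to 0.13). Hist2h2aa2 can be read only together with its copy Hist2h2aa1, since all of its 150-base stretches occur in the copy too, and the copy was given 8 counts. Hist2h2ac had 14, 9 and 4 counts in Control and 2 in each H6R2 library (log2 fold change -1.97, adjusted p = 0.0145). Hist1h2ah had 14, 12 and 10 counts in Control and 6, 5 and 2 in H6R2 (log2 fold change -1.30, adjusted p = 0.0323). In both genes the groups did not overlap.

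Hist1h2an was the only member called higher. It had 6, 0 and 1 counts in Control and 5, 10 and 13 in H6R2 (log2 fold change 2.08, adjusted p = 0.0117), and after scaling Control replicate 1 lay above H6R2 replicate 1, so the groups overlapped. In this gene 72.5% of 150-base stretches are shared with another member, Hist1h2ah being the closest, which went the other way. The calls of these small counts rested on single libraries. The log2 fold change of Hist1h2an was 4.03 without Control replicate 1. Hist1h2an did not pass without Control replicate 2 (adjusted p = 0.0573), without Control replicate 3 (0.0553) or without H6R2 replicate 3 (0.0688). Hist2h2ac did not pass without Control replicate 1 (adjusted p = 0.104). Hist1h2ah did not pass without Control replicate 1 (0.0864), Control replicate 2 (0.0613), H6R2 replicate 2 (0.0503) or H6R2 replicate 3 (0.163). The H2A class sum was 16.3 ± 2.58 CPM in Control and 15.5 ± 1.02 in H6R2 (SD, n = 3), and the groups overlapped.

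H2A counts carry the same strand limit. In 17 H2A members a gene of 138 to 144 bases is annotated on the opposite strand inside the histone gene, and its row held a median of 85% of the member's own count (range 25 to 100%). Reads from a histone gene and from its antisense partner therefore cannot be told apart in these tables. The same windows show where reads fell. In Hist3h2a the inner gene covers bases 299 to 436 of a 2146-base model and held 81.3% of the member's count, so most Hist3h2a reads touched this stretch and not only the 1643 exon bases after the stem-loop. Trim17, which overlaps Hist3h2a, had 769 counts against its 774.

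H3 and H4 genes had the fewest reads. Hist2h3c2, the tested H3 gene with the most counts, had 5, 7 and 6 in Control and 3, 5 and 5 in H6R2 (log2 fold change -0.32, 95% interval -1.57 to 0.92), and none of the 7 tested H3 genes passed. Hist1h4i, the H4 gene with the most counts, had 19, 34 and 22 in Control and 23, 16 and 22 in H6R2, with overlap and a log2 fold change of -0.16. Of the 13 tested H4 genes, 1 was called, where 8.69% of all tested genes were. Hist2h4 had 5, 6 and 5 counts in Control and 0, 0 and 2 in H6R2, and its fitted log2 fold change of -2.66 passed (adjusted p = 0.0182) but depends on the small count added for zeros. Its ratio of summed scaled counts, H6R2 over Control, was 0.138 with a 95% exact interval of 0.015 to 0.586 that covers counting error only. The fitted log2 fold change was -5.38 without H6R2 replicate 3, which held both H6R2 counts. Hist2h4 did not pass without H6R2 replicate 1 (adjusted p = 0.0707) or without H6R2 replicate 2 (0.0740). The H4 class sum was 3.45, 3.49 and 3.16 CPM in Control and 2.64, 2.80 and 3.07 in H6R2, a ratio of 0.844 without overlap, while the H3 sum overlapped (ratio 0.870). The H4 groups were narrowly apart, at 3.16 against 3.07, in a sum that includes the counts of Hist2h4.

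The 13 members that were not tested summed to 1 to 9 counts each, 44 in Control and 22 in H6R2 in all. Among them were the testis-specific genes Hist1h1t, with 4 counts, and Hist1h2ba, with 1 count.

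Members were then grouped by the poly(A) signal. The 13 members with AATAAA after the stem-loop or stop codon held 83.5% of member counts, most of them from Hist1h1c. Their sum was 119, 106 and 112 CPM in Control and 72.3, 70.4 and 70.9 in H6R2, a ratio of 0.634, and 0.652 without Control replicate 1. The 55 members without the hexamer had 22.9, 16.4 and 18.9 CPM in Control and 17.2, 16.5 and 18.1 in H6R2. With the hexamer the groups were separate, and without it they overlapped, at a ratio of 0.891 that became 0.979 without Control replicate 1. Grouped by gene model, the 4 members with no stem-loop and a long 3′ part had a ratio of 0.449. The 13 that run on past the stem-loop had 0.669, and the 29 that end near it 0.963, the last with overlap. The 22 that end near the stop codon or are pseudogenes had 0.705, also with overlap, and 0.882 without Control replicate 1. Of those 29, the 9 that run on past the deposited end in M21 had a ratio of 1.13 and the other 20 had 0.886, both with overlap. Neither grouping was tested, since a few genes dominate the sums. Hist1h1c and Hist1h2bc do so among members with the hexamer. Hist3h2a, Hist1h2br, Hist1h4a and Hist2h3c1 also have it and had log2 fold changes of 0.16, 0.36, 0.14 and 0.14, none of them passing. The rest of the 13 with the hexamer were negative. The class of 29 held 11.7% of all member counts, of which Hist2h2aa2 alone held 4.71% and Hist1h1d 1.73% of all member counts. Among tested members whose deposited model ends near the stem-loop, 1 of 24 was called (Hist2h2ac), where 8.69% of all tested genes were. Most of these 24 had few counts, so few calls say little about them. Their median log2 fold change was -0.004, with 12 above and 12 below 0. Of the 15 tested that end near the stop codon or are pseudogenes, 2 were called lower and 1 higher, with a median of -0.56.

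**Figure D4:**
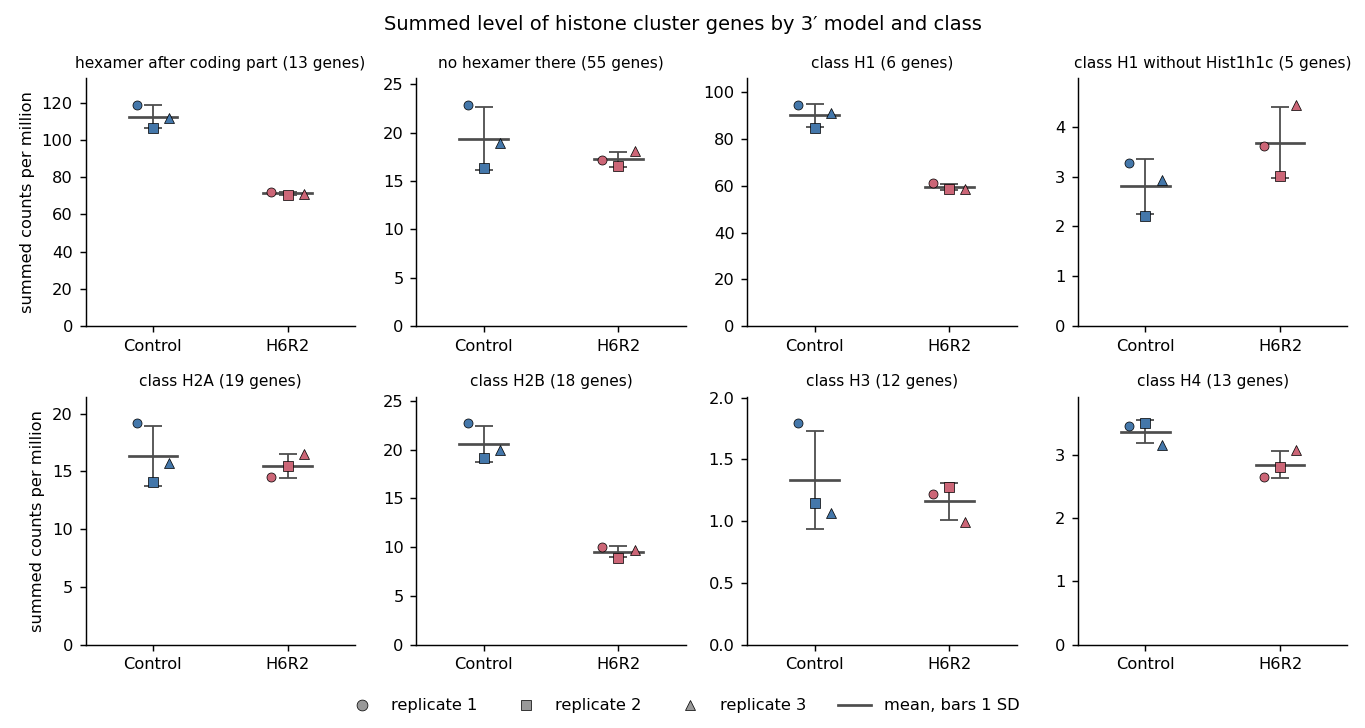
Summed CPM, on linear axes from 0, for members with and without the AATAAA hexamer after the stem-loop or stop codon and for each histone class; points are libraries, lines means and bars 1 SD (n = 3). Class H2B is separate between groups at a ratio of 0.461, and class H1 loses its separation when Hist1h1c is left out.

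Control replicate 1 stood apart in transcripts that carry no poly(A) tail and in transcripts of adult liver. The list of abundant adult liver transcripts had 1370 counts there against 377 and 540 in the other Control libraries and 143 to 236 in H6R2, and Fga, a fibrinogen chain, had 61 counts there and 0 in each of the others. Control replicate 1 also had 131335 counts of the 18S rRNA row Rn18s-rs5, against 28347 to 43775 in the other 5 libraries, and the rest of the non-polyadenylated list had 450 CPM of the library total there against 275 to 361. The part of either in the histone counts was not tested; the members' sum was lower in H6R2 with and without this library, as given above. Of 111 tested genes of the non-polyadenylated list, 9 were lower and 2 higher at adjusted p under 0.05, 3 and 2 of them called. Their median log2 fold change was -0.27. Over all tested genes 51.3% passed adjusted p under 0.05 and 8.69% were called. Rnu7, the U7 RNA that guides the cut after the histone stem-loop, had 3, 3 and 5 counts in Control and 0 in each H6R2 library, at least 3.33-fold lower against a limit of 3 counts over the group. The small nucleolar RNA Snord14e had 5, 5 and 4 counts in Control and 17, 11 and 20 in H6R2 (log2 fold change 1.88). Snora74a had 5, 3 and 7 counts against 1 in each H6R2 library, and the 5S rRNA gene n-R5s124 had 11, 2 and 0 against 1, 0 and 0. Against Control the summed ratio was 0.220 (95% exact interval 0.041 to 0.779) for Snora74a and 0.085 (0.0020 to 0.564) for n-R5s124. Control replicate 1 held 11 of the 13 Control counts of n-R5s124, and without it the ratio was 0.366 (0.0062 to 7.03), while that of Snora74a was 0.220.

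Histone genes outside the clusters, most of whose mRNAs are polyadenylated, had more counts. Counts for this list and those below stand beside the share over all tested genes. At adjusted p under 0.05 that share was 51.3% (26% lower, 25.3% higher), or 64% at 100 or more counts, and 8.69% were called. Of 11 tested variant histone genes, 7 fell and none rose at adjusted p under 0.05, all 7 by less than 2-fold, and the 11 had a median of -0.36 on the log2 scale. The lowest value was that of H3f3c, which had 5, 4 and 5 counts in Control and 1, 3 and 0 in H6R2 and did not pass (log2 fold change -1.58, adjusted p = 0.127). H1f0, the replacement linker histone H1.0, had 23474, 20777 and 21491 counts in Control and 12482, 12918 and 13015 in H6R2 (log2 fold change -0.63, adjusted p = 2.07e-15). The H6R2 libraries of H1f0 were all lower than Control, by nearly the fold of Hist1h1c. The log2 ratio of Hist1h1c to H1f0 was -3.50 ± 0.05 in Control and -3.51 ± 0.05 in H6R2 (SD, n = 3), again a pair chosen after its values were seen (exact permutation p = 0.8). H2afx, the variant marked at DNA breaks, fell by 0.75 on the log2 scale, H2afz, found at promoters, by 0.59 and Cenpa, the centromeric H3, by 0.41.

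Factors that make and process histone mRNA were mixed. Of 20 tested, 9 fell and 3 rose at adjusted p under 0.05, none was called, and the median log2 fold change was -0.03, as for all genes. Slbp, the stem-loop binding protein, had 5354, 4839 and 4787 counts in Control and 2768, 2994 and 2990 in H6R2. Slbp fell by 0.64 on the log2 scale (adjusted p = 2.27e-15) without overlap. Npat, the coactivator of histone gene transcription, rose by 0.44 (adjusted p = 2.61e-07). Cstf3, a subunit of the cleavage stimulation factor, fell by 0.96, Srrt, a partner of the nuclear cap-binding complex, by 0.89 and Lsm10, a protein of the U7 snRNP, by 0.67.

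Of 14 tested turnover factors, 8 fell and 4 rose, with 1 called (Lsm2, log2 fold change -1.11) and a median of -0.20. Lsm7 fell by 0.83 and Lsm6 by 0.59, both of them subunits of the Lsm ring that joins RNA decay and splicing, while the exonuclease Xrn1 rose by 0.46. Of 22 tested histone chaperones and assembly factors, 12 fell and 2 rose, and the median was -0.16. The called one was Asf1b, an H3-H4 chaperone, with 467, 429 and 495 counts in Control and 153, 163 and 147 in H6R2 (log2 fold change -1.45). The CAF-1 subunits Chaf1a and Chaf1b, which place histones on new DNA, fell by 0.88 and 0.64, and Ipo4, an importer of histones, rose by 0.59.

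DNA replication and S-phase genes fell most widely among the lists. Of 40 tested, 36 fell and 1 rose at adjusted p under 0.05, 11 of them called, all lower, and the median log2 fold change was -0.64. Over all tested genes 26% fell and 25.3% rose at that limit, and 8.69% were called. Ccne1, the cyclin that drives entry into S phase, had 250, 260 and 252 counts in Control and 32, 31 and 48 in H6R2 (log2 fold change -2.64, adjusted p = 1.08e-19). The base-excision enzyme Ung fell by 2.39, the checkpoint mediator Clspn by 1.60 and thymidine kinase Tk1 by 1.46. In each of these 4 genes the groups were separate. Over the histone cluster members the median was -0.32, and the lists were not tested against each other.

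**Figure D5:**
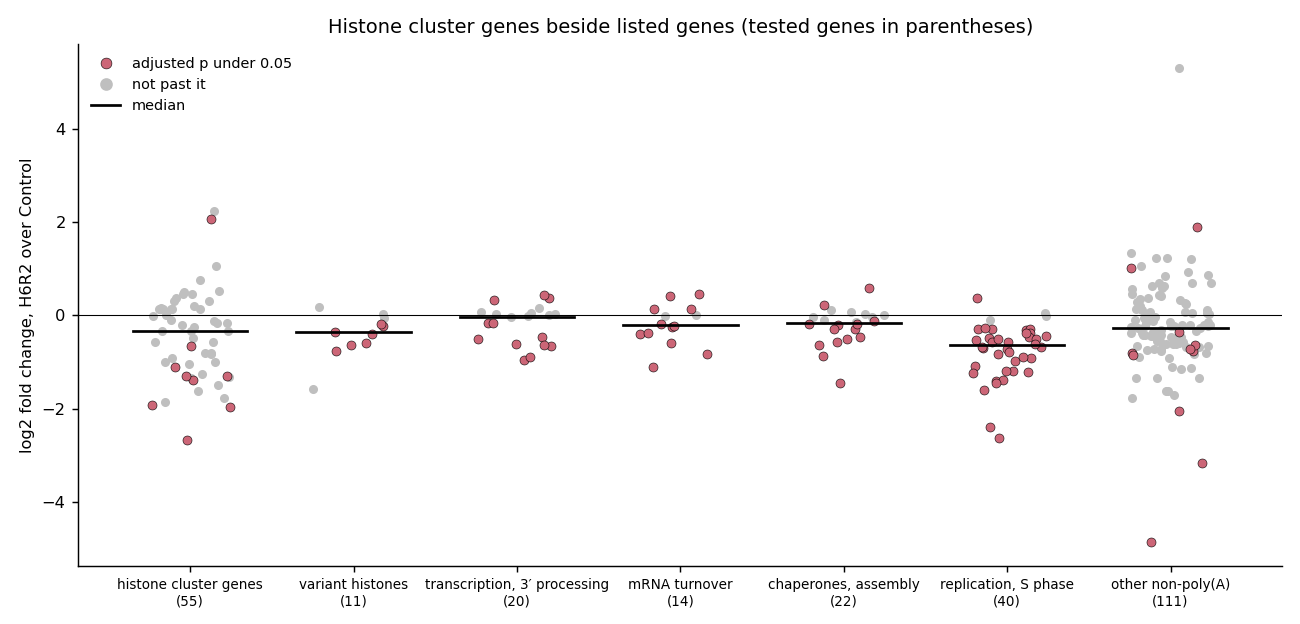
Log2 fold change of H6R2 over Control for each tested histone cluster gene and each tested gene of 6 lists, with the number tested in parentheses; red points passed adjusted p under 0.05 and black lines are medians. The medians are -0.32 for histone cluster genes and -0.64 for replication and S-phase genes.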

How the data were processed

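RNA-seq libraries of 3 Control and 3 H6R2 samples were used, with groups taken from the labels. The study made libraries with a stranded mRNA kit from total RNA. Per the submitters' processing notes, the tools were Trimmomatic 0.36, featureCounts of Subread 1.5.1 and edgeR 3.12.1 on GRCm38 (mm10). The deposited counts are whole numbers per gene, not normalized. The deposited RPKM values were recomputed from the counts, gene length and library total with a largest relative difference of 1.13e-06. Total counts per library were 20438746 to 21854790.

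Genes with at least 10 counts summed over the 6 libraries were fitted with the edgeR 4.0.16 quasi-likelihood test (robust, TMM scaling, R 4.3.3), with Benjamini-Hochberg adjustment over all genes tested. The model was tested on simulated data with changes placed only in genes of higher counts than most called members. This simulation therefore does not cover changes at the depth of those members. RPKM was used only to compare levels and in limma 3.58.1 alternatives on log2 values. DESeq2 1.42.0 was a further alternative. Scaled counts are counts over TMM-scaled library size times the mean size. Exact intervals and limits of 3 counts cover counting error only. Intervals of log2 fold changes came from the edgeR fit and include the spread between libraries.

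Values were given for called members (at most 15), the 5 members with the highest mean RPKM, the member with the most counts of each class, 4 genes by absolute change from each list, and Slbp, Npat and Ccne1. Other members named were chosen after their values were seen. Members and lists were chosen with earlier results of these data known. The stem-loop motif, hexamers and shared 150-base stretches were searched in GENCODE M21 transcripts. No libraries were duplicates: replicate pairs differed by more than counting noise.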

Additional observations from a re-analysis of the deposited data

How the results depend on the processing

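Of the 8 called members, 5 were called by DESeq2 (4 lower and 1 higher, with 18 of the 55, Hist2h4 among them, left without an adjusted p), 4 after edgeR's filterByExpr (13 members tested), 2 with at least 10 counts in every library (9 tested), 2 by limma on log2(RPKM + 1), and 3 when genes with overlapping exons were left out (32 tested). The fewer members tested lower the count in the filtered settings. By DESeq2, Hist2h2ac (adjusted p = 0.0534) and Hist1h2ah (0.104) did not pass, and Hist2h4 had no adjusted p. Why the methods differ was not tested. By limma on log2(RPKM + 1) all 8 still passed adjusted p under 0.05. Those not called missed only the 2-fold limit, as did Hist2h4 at -0.18 and Hist1h2be at -0.16 on the log2 scale. Over all genes the count of 1520 became 882 with 10 counts in every library, 432 by limma on log2(RPKM + 1) and 997 without overlapping genes, and over the listed genes 18 became 10 without overlapping genes. Leaving out each library gave 6 to 8 called members, 15 to 19 listed genes and 1376 to 1475 genes. The log2 ratio of summed levels ran from -0.62 to -0.52 for all members, from -0.70 to -0.62 with the hexamer and from -0.27 to -0.03 without it. Library totals alone, chosen after seeing the data for these sums, moved the ratio with the hexamer from -0.66 to -0.76. The log2 fold change of Hist1h4i ran from -0.33 to 0.14 when each library was left out, turning positive without Control replicate 2. With the replicate number as a block, 8 members were called, and the listed and all-gene counts were 18 and 1530. Same-numbered libraries did not deviate together (correlations of -0.059, 0.002 and -0.031), so the numbers were not taken to pair the samples. Hist1h1c, Hist1h2bc, Hist2h2be, Hist2h2bb and Hist1h2be passed adjusted p under 0.05 in every setting in which they were tested. Depth limits the other members, most of which had fewer than 50 counts in all.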
